A study of Mus musculus with 2 samples.

Results

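A set of 9 mouse genes that mark the steps of adult neurogenesis was examined in total RNA of the hippocampus. It held Eomes, a marker of committed progenitors, the proliferation genes Mki67, Top2a, Cdk1 and Ccnd2, and Neurod1, Sox11, Dcx and Igfbpl1, which are expressed in immature neurons. The 9 genes were taken by symbol from the transcript names and joined by gene identifier to the gene tables, which hold 55536 annotated genes. Each symbol matched 1 gene identifier.

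The tissue, labelled as a layer of the hippocampus with no layer named, came from male B6CASTF1/J mice, the F1 hybrid of C57BL/6J and CAST/EiJ, at 2 months of age, and no treatment is named. A single group of 2 libraries, biological replicates 1 and 2, was available, made from 300 ng of RNA each with ERCC spike-in RNAs added, so no contrast between conditions exists and no test was run. The labels give the libraries separate biosamples but the same donor, so that the replicates come from different animals is not stated outright. The spread given here (SD, n = 2) is the spread between these libraries. Estimated counts summed to 31422827 in replicate 1 and 31303010 in replicate 2. Levels are in TPM, the usual unit of transcript abundance, which divides reads by transcript length and scales each library to the same total, and so allows genes to be compared with each other.

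In the adult mouse, new granule neurons are made in the subgranular zone of the dentate gyrus. Radial glia-like stem cells, which share many genes with astrocytes, give rise to dividing intermediate progenitors that express Eomes, also called Tbr2. Their daughters leave the cell cycle, pass through a stage marked by doublecortin, the product of Dcx, and mature into granule cells. These dividing cells and young neurons are a small minority of hippocampal cells. In bulk tissue, fewer cells of a type and less RNA per cell cannot be told apart.

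The 9 genes covered a wide range of levels. Ccnd2 stood highest at 47.3 ± 0.0566 TPM (SD, n = 2), followed by Neurod1 at 13.3 ± 0.170 TPM, Sox11 at 6.88 ± 0.424 TPM, Dcx at 5.28 ± 0.0990 TPM and Igfbpl1 at 1.64 ± 0.446 TPM. Top2a, Cdk1, Mki67 and Eomes lay under 1 TPM in both libraries. Counting a gene as detected when it reached 1 TPM in both libraries, 5 of the 9 genes were detected, beside 57.7% of the 22028 protein-coding genes and 26.2% of all annotated genes. The protein-coding share is also the background for the counts of detected genes in the lists below. The median level of the 9 genes was 1.64 TPM, against 3.23 TPM over all protein-coding genes. Ccnd2 ranked 2062 among the protein-coding genes by mean TPM and Eomes ranked 14481.

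Neighbours in this order were separated in 6 of 8 pairs, in that the TPM values of the 2 libraries did not overlap. The pairs that overlapped were Cdk1 with Mki67 and Mki67 with Eomes, so the order among the 3 lowest genes is not resolved. The authors' intervals of TPM within a library, whose level is not stated, were disjoint for the 4 pairs from Ccnd2 down to Igfbpl1. For Top2a the deposited TPM lay under its own interval in both libraries, at 0.70 TPM beside 0.718 to 1.74 TPM in replicate 1 and at 0.74 TPM beside 0.814 to 1.92 TPM in replicate 2. The same held for Cdk1 in replicate 1, at 0.25 TPM beside 0.266 to 1.36 TPM. The authors' posterior mean TPM, deposited beside the TPM, lay inside the interval for all 9 genes in both libraries. It was 1.21 and 1.34 TPM for Top2a, which would place that gene above 1 TPM, and 0.78 and 0.99 TPM for Cdk1.

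**Figure D1:**
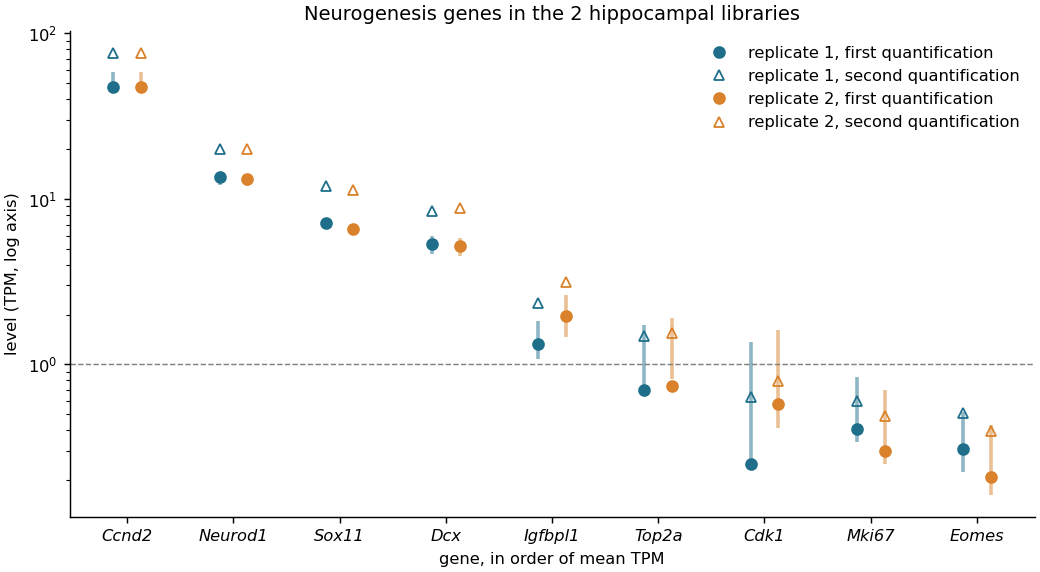
Level of each gene in TPM on a log axis, in order of the mean. Filled circles are the gene quantification, bars are the authors' intervals of TPM, which need not hold the circle, open triangles are the second quantification, and the dashed line is 1 TPM; Ccnd2 stands alone at the top, and the 4 genes on the right lie under the line in the gene quantification.

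Eomes encodes the T-box transcription factor of intermediate progenitors (chr9:118478212-118486132, plus strand, mm10). Its level was 0.31 TPM in replicate 1, against 0.21 TPM in replicate 2, from 22 and 17 reads, which gave it the lowest mean of the 9. The 95% exact Poisson intervals of these counts were 13.8 to 33.3 and 9.90 to 27.2 reads, so both libraries held reads of the gene, but a difference between them was not detectable at this depth. Such intervals cover counting error only. Its paralog Tbr1, a transcription factor of postmitotic glutamatergic neurons, was at 18.43 and 18.71 TPM, which is 59.5-fold the level of Eomes in replicate 1 and 89.1-fold in replicate 2. Tbx21, the family's gene of T cells, was at 0.07 and 0.04 TPM.

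Other genes of the intermediate progenitor step were mostly higher than Eomes. Of the 9 genes in this list, Eomes included, 7 were detected, with a median of 2.98 TPM. Elavl2, an RNA-binding protein of neurons, led at 44.13 and 33.34 TPM, followed by the SoxC factor Sox4 at 7.56 and 8.30 TPM and the antiproliferative gene Btg2 at 7.01 and 8.17 TPM. Neurog2, the proneural factor that acts just before Neurod1, was with Eomes at the bottom, at 0.46 and 0.28 TPM. Elavl2, Sox4 and Btg2 are also expressed outside this step. The 18 stem cell genes were all detected, with a median of 12.8 TPM, but those at the top, the glutamate transporter Slc1a3 at 158.16 and 165.01 TPM, Gfap at 135.34 and 133.86 TPM and Hopx at 33.37 and 31.88 TPM, are also astrocyte genes. The lowest 2 were Nes, an intermediate filament of neural progenitors, at 1.61 and 1.39 TPM and Tnc, an extracellular matrix protein, at 1.74 and 1.77 TPM.

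The proliferation genes split into Ccnd2 and the other 3. Mki67 encodes Ki-67, which coats mitotic chromosomes and the usual marker of cycling cells (chr7:135689784-135716361, minus strand). Its level was 0.41 TPM in replicate 1, against 0.30 TPM in replicate 2, from 91 and 70 reads. Top2a, the topoisomerase that untangles replicated chromosomes (chr11:98992943-99024189, minus strand), was at 0.70 and 0.74 TPM, from 59 and 73 reads. Of the stretches of 31 bases in Top2a transcripts, 4.404% also occur in other genes. Cdk1, the kinase that drives entry into mitosis (chr10:69335146-69352938, minus strand), had 4 reads in replicate 1 and 7 in replicate 2. Its 95% Poisson intervals ran from 1.09 to 10.2 reads and from 2.81 to 14.4 reads, so its 0.25 and 0.58 TPM cannot be separated. All 3 had reads in both libraries, and none reached 1 TPM.

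Most other mitotic genes were as low. Of 28 genes of G2 and M phase, which include these 3, only 1 was detected, and the list median was 0.475 TPM. That count depends on the quantification, since 13 of the 28 reached 1 TPM in both libraries in the second, where the list median was 1.19 TPM. In the gene quantification the exception was Cenpa, the centromeric histone, at 1.52 and 1.62 TPM. The next highest were Foxm1, the transcription factor of G2 and M phase genes, at 0.72 and 1.44 TPM, and Cdca8, a subunit of the chromosomal passenger complex, at 1.17 and 0.55 TPM. At the bottom were Hmmr, a spindle protein, at 0.08 and 0.03 TPM and the checkpoint kinase Bub1 at 0.10 and 0.16 TPM. The place of Hmmr turns on the quantification, since it had 7 and 3 reads in the first but 86.55 and 68.74 in the second, where it was detected at 1.49 and 1.17 TPM. The list as a whole gave 915 reads in replicate 1 and 867 in replicate 2. In this list 8 genes were 2-fold or more apart between the libraries in TPM. They were Cdk1, Ccnb1, Aurka, Aurkb, Hmmr, Cdca8, Mybl2 and Foxm1, and all but Foxm1 had fewer than 50 reads in at least 1 library. The share over all genes without a count minimum was not computed, so the 8 have no background. Of the 5 listed genes with at least 50 reads in both libraries, 1, Foxm1, was 2-fold apart. Over all 13916 genes with that many reads the share was 0.273%. Foxm1 had 63.6 reads in replicate 1, against 87 in replicate 2. Its gap was 2-fold in the deposited TPM only. In counts scaled to the library total the ratio of replicate 1 over replicate 2 was 0.733, with a 95% counting interval of 0.522 to 1.02 that holds 1, and the second quantification put the gene at 2.28 and 2.41 TPM.

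S phase genes were higher than those of mitosis. Of 18 genes, 12 were detected, beside 57.7% of all protein-coding genes. The list median was 2.12 TPM, under the 3.23 TPM of all protein-coding genes. Pcna, the sliding clamp of DNA polymerases, was at 21.14 and 19.42 TPM, and the helicase subunits Mcm7 and Mcm6 were at 7.67 and 6.76 TPM and at 7.16 and 7.04 TPM. Cdc6, which loads that helicase, was lowest at 0.21 and 0.37 TPM. Pcna also acts in DNA repair. Markers of other cells that can divide in the adult brain were present beside these lists. The 8 genes listed for oligodendrocyte precursors, led by Olig1 at 42.56 and 43.72 TPM, summed to 128.3 and 119.6 TPM and none was at 0. Pdgfra was at 16.47 and 13.06 TPM and Cspg4 at 7.51 and 6.71 TPM. The sum does not separate precursors from other cells of the oligodendrocyte lineage, so it is no measure of dividing cells. The 7 microglia genes summed to 139.0 and 143.8 TPM and the 6 endothelial genes to 46.75 and 49.45 TPM. Their part in the levels of the proliferation genes was not tested.

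Ccnd2 encodes cyclin D2, a G1 cyclin that divisions of adult hippocampal progenitors depend on in mice (chr6:127125162-127152193, minus strand). Its level was 47.27 TPM in replicate 1, against 47.35 TPM in replicate 2, from 3024 and 3000 reads. The libraries differed by less than counting error, and Ccnd2 alone made up most of the summed level of the 9 genes, which was 76.25 and 76.14 TPM. It was also the highest of the 3 D-type cyclins, with 58.5 ± 0.0937% of their summed TPM. Ccnd1 was at 19.65 and 20.52 TPM and Ccnd3 at 13.81 and 13.18 TPM. The antisense gene 9330179D12Rik overlaps 193 exon bases of Ccnd2 and had 25 and 29 reads. Whether reads were counted by strand is not stated, so a few reads of either gene may belong to the other. In level, Ccnd2 stood apart from Mki67, Top2a and Cdk1 in the same RNA. Which cells hold the Ccnd2 RNA was not tested, so its level is no measure of dividing cells.

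Among the cell cycle kinases, Cdk4 stood far above the others. Cdk1 held 0.976 ± 0.422% of the summed TPM of 4 kinases, whereas Cdk4, a partner of the D-type cyclins, was at 34.45 and 42.56 TPM. Cdk6, the other such partner, was at 1.42 and 1.44 TPM, and Cdk2, the kinase of S phase, at 0.81 and 0.94 TPM. Genes that restrain the cycle were looked at beside them, with 57.7% of all protein-coding genes detected by the same rule. Of 10 genes for inhibitors of these kinases and for Rb family proteins, 7 were detected, led by the inhibitors Cdkn2d at 21.87 and 23.75 TPM and Cdkn1b at 19.55 and 20.37 TPM and the Rb family gene Rbl2, whose product is part of the DREAM complex of resting cells, at 15.66 and 15.98 TPM. The lowest were Cdkn2b at 0.52 and 0.60 TPM and Cdkn2a, from 2 reads and 1 read, at 0.11 and 0.05 TPM. Top2a held 2.02 ± 0.243% of the topoisomerase II level, against the isoform of non-dividing cells, Top2b, at 37.12 and 32.98 TPM, a level 48.8 ± 5.98-fold that of Top2a.

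**Figure D2:**
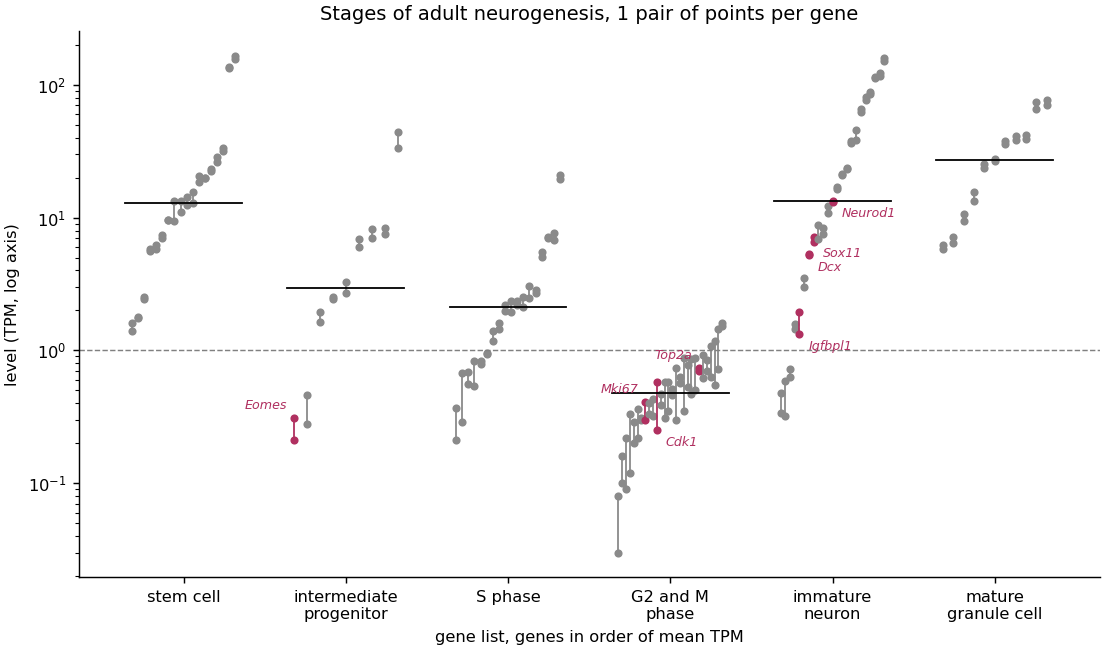
Level of each gene in TPM on a log axis, in 6 gene lists, with the value of both libraries joined by a line, the 8 of the 9 genes that fall in a list in red and the list median as a black bar. The G2 and M phase genes lie almost wholly under the dashed line at 1 TPM, while Neurod1 lies at the median of the immature neuron list and Sox11, Dcx and Igfbpl1 lie below it.

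The promoters of the lowest 4 genes are shown because mitotic genes share promoter elements. In cycling cells, many G2 and M phase genes are controlled through CCAAT boxes, which the factor NF-Y binds, and through the cell cycle genes homology region, CHR, with the letters TTTGAA, which the DREAM complex binds to repress them in resting cells. The sequences run 5′ to 3′ on the gene's strand, from 250 bases before to 50 bases after the RefSeq transcription start (GRCm38.p6), and capitals mark CCAAT and TTTGAA on either strand, so that ATTGG and TTCAAA are the same motifs read on the other strand.
Mki67: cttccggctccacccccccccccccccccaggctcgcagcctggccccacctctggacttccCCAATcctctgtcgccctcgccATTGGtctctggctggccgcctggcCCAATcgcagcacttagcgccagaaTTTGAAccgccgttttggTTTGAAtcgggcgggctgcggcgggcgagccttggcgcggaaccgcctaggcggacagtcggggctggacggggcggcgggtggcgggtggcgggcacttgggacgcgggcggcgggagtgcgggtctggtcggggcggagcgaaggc
Cdk1: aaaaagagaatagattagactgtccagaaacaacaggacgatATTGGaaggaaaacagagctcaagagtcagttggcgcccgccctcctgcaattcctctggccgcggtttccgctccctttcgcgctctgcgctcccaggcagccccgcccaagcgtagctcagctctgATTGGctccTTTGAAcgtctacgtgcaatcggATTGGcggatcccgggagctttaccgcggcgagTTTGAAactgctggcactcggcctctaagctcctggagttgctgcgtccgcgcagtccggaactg
Top2a: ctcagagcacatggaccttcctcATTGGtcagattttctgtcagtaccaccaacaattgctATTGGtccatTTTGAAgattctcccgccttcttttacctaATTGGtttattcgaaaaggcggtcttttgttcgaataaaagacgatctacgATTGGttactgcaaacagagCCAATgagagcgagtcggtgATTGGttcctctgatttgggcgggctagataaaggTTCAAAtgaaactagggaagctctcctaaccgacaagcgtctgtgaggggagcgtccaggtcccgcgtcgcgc
Eomes: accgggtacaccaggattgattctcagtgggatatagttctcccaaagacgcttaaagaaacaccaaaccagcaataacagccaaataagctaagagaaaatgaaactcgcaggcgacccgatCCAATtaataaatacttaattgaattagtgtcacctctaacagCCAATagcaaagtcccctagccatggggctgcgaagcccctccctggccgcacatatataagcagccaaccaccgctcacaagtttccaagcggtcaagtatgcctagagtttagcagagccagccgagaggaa
The windows lie at chr7:135716330-135716629 for Mki67, chr10:69352863-69353162 for Cdk1, chr11:99024140-99024439 for Top2a and chr9:118477939-118478238 for Eomes.

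All 3 mitotic genes held both motifs. Mki67 and Cdk1 each had 3 CCAAT and 2 TTTGAA matches, and Top2a had 6 and 2. In Cdk1 a TTTGAA match starts 15 bases before the start site, and in Top2a 23 bases before it. Eomes had 2 CCAAT matches and no TTTGAA. Among the immature neuron genes, Sox11 had 1 match of each, the 2 Dcx windows had 1 CCAAT match each and no TTTGAA, and Neurod1 had neither. Ccnd2 and Igfbpl1 had no entry in the RefSeq promoter table used. Of 32851 promoters of the same length in that table, 37.4% held CCAAT, 17.9% held TTTGAA and 6.95% held both. At least 2 CCAAT matches together with TTTGAA, as in the 3 mitotic genes, were found in 2.09%.

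Read per gene, both motifs were found in 17 of the 24 G2 and M phase genes that matched the table, and in 14 of 21 when Mki67, Cdk1 and Top2a were left out. The share was 2 of 14 S phase genes, 2 of 15 immature neuron genes and 3 of 15 stem cell genes, beside 7.97% of all 27025 genes in the table. These are matches of letters in a fixed window and show neither binding nor activity.

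**Figure D3:**
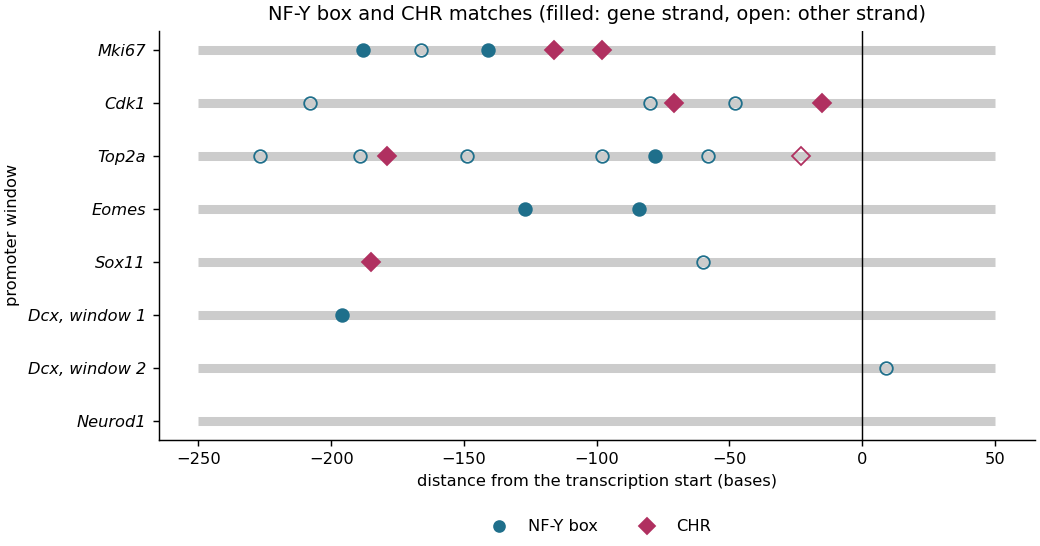
Positions of CCAAT (NF-Y box) and CHR matches in the promoter windows of 7 of the 9 genes, in bases from the transcription start; filled symbols are on the gene's strand and open symbols on the other. Mki67, Cdk1 and Top2a carry several of both kinds, Sox11 1 of each, and Eomes, Dcx and Neurod1 no CHR match.

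The immature neuron genes were all detected. Neurod1, a basic helix-loop-helix factor that drives neuronal differentiation and that granule cells need to form (chr2:79452521-79456751, minus strand), was at 13.46 TPM in replicate 1, against 13.22 TPM in replicate 2. These levels rest on 795.73 and 803.39 estimated reads. The annotated exons of its neighbour Cerkl on the same strand overlap those of Neurod1 by 201 bases. Cerkl had 105.27 and 92.61 estimated reads, and the counts of the 2 genes summed to the whole numbers 901 in replicate 1 and 896 in replicate 2, so the fractions lie in how reads were divided between this pair.

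Neurod1 was not the main member of its family. Neurod6 was at 81.36 and 76.46 TPM and Neurod2 at 66.24 and 62.70 TPM, both factors of forebrain glutamatergic neurons. Neurod1 held 8.52 ± 0.226% of the family's summed TPM, and the level of Neurod6 was 5.91 ± 0.184-fold that of Neurod1. Neurod4, a factor of retinal and other embryonic neurons, was at 0.04 and 0.03 TPM.

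Sox11 encodes a SoxC transcription factor that acts upstream of Dcx in new neurons (chr12:27334264-27342574, minus strand). It was at 7.18 and 6.58 TPM, from 1326 and 1248 reads on a single exon of 8311 bases. The authors' intervals were 6.61 to 7.35 TPM in replicate 1 and 6.03 to 6.75 TPM in replicate 2, which overlap. The 3 SoxC genes had like levels, with Sox4 at 7.56 and 8.30 TPM and Sox12 at 6.71 and 6.59 TPM. Sox11 held 32.1 ± 2.00% of their sum.

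Dcx encodes doublecortin, a microtubule-binding protein of migrating young neurons (chrX:143855842-143933311, minus strand). Its level was 5.35 TPM in replicate 1, against 5.21 TPM in replicate 2, from 664 and 691 reads. The doublecortin-like kinase Dclk1, which shares the microtubule-binding domain with Dcx and which mature neurons express, was at 231.89 and 244.02 TPM, a level 45.1 ± 2.47-fold that of Dcx. Dclk2 was at 45.90 and 42.80 TPM. Dclk3 at 5.86 and 6.15 TPM and Dcdc2a at 4.73 and 5.66 TPM lay near Dcx, and the photoreceptor gene Rp1 was at 0.06 and 0.01 TPM, from 3 reads and 1 read. Dcx thus made up 1.77 ± 0.0752% of the summed TPM of its 6-gene family. Of 12671 stretches of 31 bases in Dcx transcripts, 0.450% also occur in a transcript of another gene.

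Igfbpl1, an insulin-like growth factor binding protein-like gene of young neurons (chr4:45809468-45826923, minus strand), was the lowest of the 4. Its level was 1.32 TPM in replicate 1, against 1.95 TPM in replicate 2, from 82 and 99 reads. The authors' intervals, 1.08 to 1.84 TPM and 1.47 to 2.62 TPM, overlap. All 6 insulin-like growth factor binding protein genes listed beside it were higher, with Igfbp5 at 29.54 and 28.71 TPM, Igfbp4 at 29.27 and 26.60 TPM, Igfbp2 at 17.77 and 18.49 TPM, Igfbp7 at 9.14 and 10.17 TPM, Igfbp3 at 4.17 and 4.08 TPM and Igfbp6 at 3.12 and 3.63 TPM. Igfbpl1 held 1.74 ± 0.483% of the sum.

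Set among 23 immature neuron genes, of which 20 were detected with a median of 13.3 TPM, Neurod1 was the median gene and Sox11, Dcx and Igfbpl1 lay below it. The highest were the tubulin-binding protein Stmn1 at 150.23 and 160.08 TPM, the adhesion molecule Ncam1 at 123.54 and 116.93 TPM and the neuronal tubulin Tubb3 at 112.64 and 114.35 TPM, all of which mature neurons express too. The lowest were Draxin, an axon guidance protein, at 0.34 and 0.48 TPM and Nhlh1, a transcription factor of newborn neurons, at 0.32 and 0.59 TPM. The 11 genes of mature granule cells were all detected at a median of 27.2 TPM, led by C1ql3 at 70.42 and 76.37 TPM, Calb1 at 66.32 and 74.39 TPM and Prox1, the factor of granule cell identity, at 41.65 and 39.44 TPM. The lowest of that list, Dsp at 5.79 and 6.24 TPM and Tdo2 at 6.47 and 7.09 TPM, were still above the level of Dcx. The part of mature granule cells in the level of Neurod1 was not tested.

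Other sources of these transcripts were looked for with marker lists. Young neurons of the subventricular zone, the other neurogenic region of the adult mouse brain, express Dcx, Sox11 and Igfbpl1 as well. Of 8 genes that mark their lineage and interneurons, 5 were detected, beside 57.7% of all protein-coding genes. The 8 genes had a median of 1.68 TPM and sums of 16.64 and 15.88 TPM. Dlx1 was highest at 7.14 and 7.06 TPM, followed by Dlx6 and Dlx2, and Nkx2-1 and Gsx2 were lowest at no more than 0.24 TPM. Hippocampal interneurons express Dlx1, and the part of such cells in the level of Dcx was not tested. Of 6 Cajal-Retzius genes 4 were detected. Reln was at 19.17 and 17.81 TPM, Ndnf at 7.18 and 8.95 TPM and Cacna2d2 at 7.37 and 7.53 TPM. Trp73, a transcription factor that marks these cells, was at 1.48 and 1.59 TPM from 140 and 171 reads, while Lhx1 and Lhx5 were at no more than 0.15 TPM. Which cells express the 4 detected genes was not tested. Of 6 ependymal genes 2 were detected, and Rarres2 at 4.64 and 6.61 TPM was the highest. Of 8 leukocyte genes none was detected, and 4 were at 0 in both libraries. Ptprc came closest, at 0.95 and 1.18 TPM from 89 and 78 reads. In the second quantification it was detected, at 1.79 and 1.66 TPM. In the list of other organs, 2 of 12 were detected, the highest being Sftpc at 1.86 and 1.87 TPM and Myh6 at 1.02 and 1.67 TPM, levels above those of Mki67, Top2a, Cdk1 and Eomes. For Myh6 this depends on the quantification. The second put it at 0.606 and 2.46 TPM, from 17.2 and 16.9 reads, and Top2a at 1.49 and 1.55 TPM. All 11 granule cell genes were detected, and most genes of other organs were at or near 0. These lists were chosen with earlier results of these data known, so they are no test of the labelled tissue.

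The transcripts behind these levels differed in how firmly they could be assigned. Neurod1 and Sox11 have 1 annotated transcript each. Mki67 reads were all assigned to Mki67-201, the transcript of 10061 bases, in both libraries. For 8 of the 9 genes the most abundant transcript was the same in both libraries and both quantifications. Cdk1 was the exception. Neurod1 and Sox11, with 1 transcript each, are among the 8 and could not differ.

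Dcx-201, the transcript of 9074 bases with a coding part of 1098 bases, held 51.0% of the Dcx level in replicate 1 and 52.0% in replicate 2. By estimated reads rather than TPM it held 82.9% and 81.5%, since TPM divides reads by length and so raises the share of short transcripts. Dcx-204, of 1333 bases, held 26.4% and 16.9% of the TPM but 5.89% and 3.62% of the reads. The retained-intron transcripts Dcx-205 and Dcx-206 together held 22.6% and 31.1% of the TPM and 11.2% and 14.9% of the reads. The second quantification put these transcripts at 21.4% and 25.4% of the TPM. Total RNA also holds unspliced nuclear RNA, and its part in these shares was not tested.

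For Ccnd2, 3 coding transcripts shared the TPM. Ccnd2-201, of 6330 bases, held 37.0% and 35.7% of it, Ccnd2-204, of 1006 bases, 30.9% and 27.7%, and Ccnd2-206, of 627 bases, 25.6% and 27.1%. By reads, Ccnd2-201 held 81.1% in both libraries. Most Ccnd2 reads thus fell on the long transcript, whereas most of the TPM was carried by the short ones.

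Top2a-201, the coding transcript of 5221 bases, held 67.6% and 78.4% of the Top2a TPM and 92.9% and 93.5% of its reads. The rest fell on transcripts annotated as processed, Top2a-207 with 19.7% and 8.11% of the TPM among them. In the second quantification Top2a-201 held 51.8% and 58.0% of the TPM. Top2a-204, a processed transcript with no coding part, held 25.9% and 23.0% there, from 15.8 and 14.8 estimated reads. Cdk1 rested on too few reads for such a division. Its coding transcripts summed to 0.05 and 0.02 TPM, and the retained-intron transcripts Cdk1-203 and Cdk1-204 took 80.8% and 96.6% of the TPM on 1.51 and 4.87 estimated reads. Nearly all of the Cdk1 TPM in replicate 2 thus came from 4.87 estimated reads on Cdk1-204, a transcript of 475 bases. Eomes-201 held 58.1% and 100% of the Eomes TPM, the rest in replicate 1 being Eomes-202. Igfbpl1-201 held 100% and 73.3% of the Igfbpl1 TPM, and Igfbpl1-202, a transcript with no coding part, took 26.7% in replicate 2 from 7.76 estimated reads. Its coding transcript alone was at 1.32 TPM in replicate 1, against 1.43 TPM in replicate 2.

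**Figure D4:**
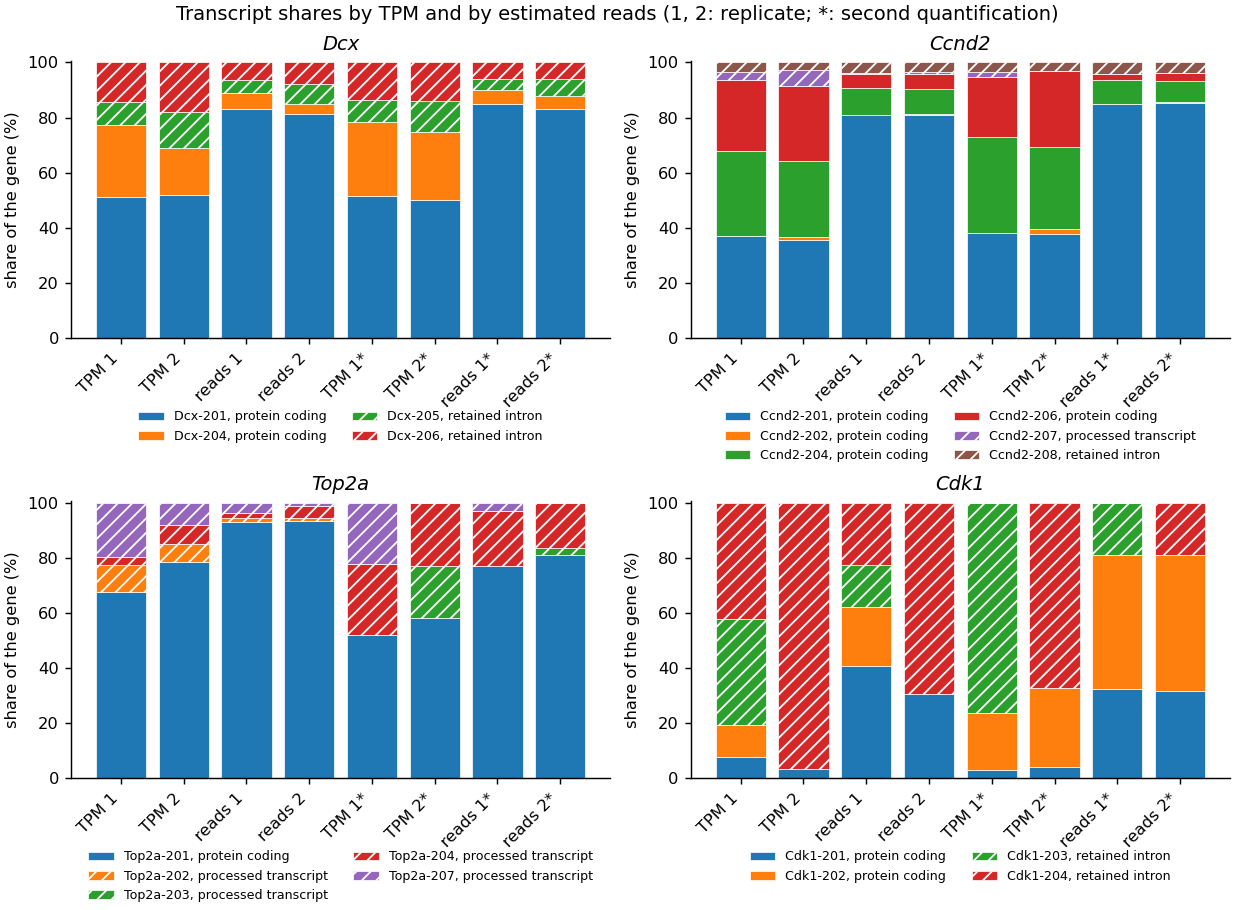
Share of each transcript in the gene's level, in percent, by TPM and by estimated reads in both libraries, with asterisks for the second quantification and hatching for transcripts that are not annotated as coding. The long transcripts Dcx-201, Ccnd2-201 and Top2a-201 take more of the reads than of the TPM, and the Cdk1 division differs from column to column.

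The libraries were close for the genes with more reads. Of the 9 genes, 7 had at least 50 reads in both libraries, and none of these was 2-fold or more apart, beside 0.273% of the 13916 genes with that many reads. Cdk1, with 4 and 7 reads, had a log2 ratio of replicate 1 over replicate 2 of -1.21 in TPM. The largest among the other 8 genes were Igfbpl1 at -0.56 and Eomes at 0.56. The SD was 0.205 over all genes with at least 50 reads in both libraries. Eomes, with 22 and 17 reads, is not in that set. In counts scaled to the library total, the 95% counting interval of the ratio held 1 for all 9 genes, for instance 0.608 to 1.12 for Igfbpl1 and 0.938 to 1.80 for Mki67. By TPM, 5 genes were higher in replicate 1 and 4 were lower, and for 3 of the 9, Ccnd2, Dcx and Neurod1, the direction turned when counts were scaled by TMM or DESeq2 size factors.

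The second quantification gave higher values for all 9 genes, but the rise was not particular to them. The median of the mature granule cell list was 27.2 TPM in the gene quantification and 50.6 TPM in the second, although Calb1 of that list went down, at 0.917-fold. The TPM of the second quantification was 1.503-fold that of the gene quantification for Neurod1 and 2.11-fold for Top2a, the lowest and the highest of the 9 ratios. With it, Top2a was at 1.49 TPM in replicate 1, against 1.55 TPM in replicate 2, so 6 of the 9 genes were detected, beside 62% of the protein-coding genes. The coding transcript Top2a-201 alone stayed under 1 TPM there, at 0.772 and 0.897 TPM. Nuclear protein-coding genes took 42.1% of the TPM of the gene quantification in replicate 1 and 41.2% in replicate 2, and the rest went to other entries, so a level in TPM is also a statement about those entries. Scaled to nuclear protein-coding genes alone, Ccnd2 was at 114 TPM, Neurod1 at 32.0 TPM, Dcx at 12.7 TPM and Mki67 at 0.851 TPM. This scaling divides all genes of a library by the same number, so it raises every level and cannot alter their order within a library.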

How the data were processed

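Total RNA-seq of 2 libraries of mouse hippocampus was analysed from the gene and transcript tables. Per the file headers, the gene tables and the first transcript tables have the RSEM layout, and the second transcript tables have the kallisto layout. Per the deposited listings, the mm10 build and the GENCODE M21 annotation were used; program names and version numbers were not given in the sources used here. Reads of both parental genomes were thus assigned to a C57BL/6J-based reference. Expected counts and TPM were deposited by the authors, as were intervals of TPM and the percent each transcript takes of its gene.

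Totals were 31422827 and 31303010 estimated counts, of which 0.491% and 0.511% lay on entries that are not genes. Detection was set at 1 TPM in both libraries and a difference at 2-fold with at least 50 counts. Exact 95% Poisson and binomial intervals cover counting error only. With 1 group, no test was run; edgeR 4.0.16 (TMM) and DESeq2 1.42.0 size factors were used only to rescale counts, after a check on simulated counts. Motifs were searched on both strands of RefSeq promoters (GRCm38.p6). Genes were named by a rule: the 9 genes, every family gene, and of other lists the 3 highest, the 2 lowest and those 2-fold apart were eligible. A gene that the rule names is not reported here. The 9 genes and all lists were chosen with earlier results of these data known. Alternatives were other thresholds, pseudocounts, scalings, the second quantification and each library alone. Tables were made with Python 3.11.15 and pandas 2.3.3.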

Additional observations from a re-analysis of the deposited data

How the results depend on the processing

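The number of the 9 genes detected ranged from 4 to 6 over the alternatives tried. The G2 and M phase count depended on the threshold: 10 of 28 genes at 0.5 TPM, 0 at 2 TPM, 13 in the second quantification, 12 with TPM over nuclear protein-coding genes, and between 2 and 3 with 1 library alone, in place of 1. No gene was 2-fold apart, except 1, Cdk1, with no count minimum. The direction between replicate 1 and replicate 2 turned for Ccnd2, Dcx and Neurod1 with TMM or DESeq2 size factors. The second quantification also turned it for Ccnd2 and Dcx. All 9 mean levels moved by more than 1 SD in the second quantification and with TPM over nuclear protein-coding genes, upwards in each case. With TPM over nuclear protein-coding genes that direction is fixed by the scaling. Counts of stem cell, S phase and immature neuron genes, separated neighbours and leading transcripts stayed within 1.5 times. Depth limits Cdk1 and Eomes most. No paired analysis was possible because the 2 libraries form 1 group.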

Other observations

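Signals that act on the neurogenic niche were present in the same libraries. Of 17 such genes, 15 were detected, beside 57.7% of all protein-coding genes. The list median was 4.12 TPM, against 3.23 TPM over all protein-coding genes. Ntrk2, the receptor of the growth factor BDNF, was highest at 133.79 TPM in replicate 1, against 128.14 TPM in replicate 2, followed by the receptor Fgfr1 at 52.83 and 48.67 TPM and the growth factor Vegfa at 31.08 and 25.08 TPM. The ligands Shh, at 0.58 and 0.47 TPM, and Wnt3, at 0.55 and 0.51 TPM, were lowest. None of the genes with at least 50 reads in both libraries was 2-fold apart. Most of these genes act in many cell types, and their relation to the 9 neurogenesis genes was not tested.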
